A study of Mus musculus with 6 samples.

Results

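The nuclei described here came from mouse dorsal root ganglia and carried transcripts that mark itch-sensing neurons, foremost Il31ra, Htr1f and Cysltr2. They were selected on measured values: at least 1000 unique molecular identifiers (UMIs, one per captured transcript), a mitochondrial share of at most 5%, UMIs of at least 2 of the 4 neuron genes Snap25, Syt1, Rbfox3 and Elavl3, UMIs of at least 2 of the 5 markers Il31ra, Nppb, Sst, Cysltr2 and Htr1f, and none of Mrgprd, Mrgpra3 or Trpm8. The rule found 132 nuclei, named itch neuron nuclei below. They were 11.9% of the 1106 nuclei that passed the neuron genes (exact Clopper-Pearson 95% interval 10.1% to 13.99%). The ganglion library held 4743 filtered nuclei among 5871 barcodes, and the series 57597 barcodes. The name follows the rule and is not borne out for all: 23 of the 132 had exactly 2 markers. The Osmr and Jak1 levels of those 23 were near those of nuclei with 1 marker outside the class. Only 2 of the 23 fell in the cluster that held most of the 132. The study sequenced 5 sciatic nerve libraries, from postnatal day 0 (P0) to P60, and 1 ganglion library at P14, made to look for receptors of the semaphorin SEMA3B on sensory neurons. The ganglion library pooled lumbar ganglia of 4 male and 4 female C57BL/6 mice, and its labels name no treatment and no other genotype. All groups compared below come from that library, so nuclei are not replicates, no p-value is given, and every 95% interval covers counting error only. Its protocol describes dissociated cells while its molecule is given as nuclear RNA; mitochondrial transcripts had a median share of 0.0294% in the itch neuron nuclei, and the barcodes are called nuclei here.

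Itch neurons are unmyelinated sensory neurons of the skin. In mouse, one class of them is known by the natriuretic peptide gene Nppb and the somatostatin gene Sst, and it bears the receptor for interleukin-31, a T cell cytokine that causes itch. That receptor joins the Il31ra and Osmr proteins and signals through the kinase Jak1. Cysltr2 encodes a receptor for cysteinyl leukotrienes and Htr1f a serotonin receptor. Other unmyelinated classes are known by Mrgprd (touch and pain fibres of the skin), Mrgpra3 (a chloroquine-sensitive itch class) and Trpm8 (cold).

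The promoters of the 3 genes of the interleukin-31 receptor pathway and of the 2 peptide genes are shown because the results below turn on them. The sequences are RefSeq windows on GRCm38.p6, 250 bases before to 50 after the annotated start, 5′ to 3′ on the gene's strand. A TATA box (TATAAA), a cAMP response element (TGACGTCA) and a RUNX core (TGTGGT) were searched on both strands, with no overlap between the motifs, and matches stand in capitals.
Il31ra, chr13:112580613-112580912, minus strand: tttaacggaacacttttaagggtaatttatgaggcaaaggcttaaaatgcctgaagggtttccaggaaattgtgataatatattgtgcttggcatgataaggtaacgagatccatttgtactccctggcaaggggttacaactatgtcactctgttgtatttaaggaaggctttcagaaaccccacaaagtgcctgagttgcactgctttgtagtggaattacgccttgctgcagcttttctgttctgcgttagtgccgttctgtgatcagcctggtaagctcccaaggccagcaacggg
Osmr, chr15:6874264-6874563, minus strand: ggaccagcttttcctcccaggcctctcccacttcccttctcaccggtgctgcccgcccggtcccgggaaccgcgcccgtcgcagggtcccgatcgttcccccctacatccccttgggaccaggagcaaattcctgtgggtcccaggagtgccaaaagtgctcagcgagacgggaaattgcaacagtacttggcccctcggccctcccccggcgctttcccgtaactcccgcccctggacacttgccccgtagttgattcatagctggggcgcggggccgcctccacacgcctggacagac
Jak1, chr4:101265174-101265473, minus strand: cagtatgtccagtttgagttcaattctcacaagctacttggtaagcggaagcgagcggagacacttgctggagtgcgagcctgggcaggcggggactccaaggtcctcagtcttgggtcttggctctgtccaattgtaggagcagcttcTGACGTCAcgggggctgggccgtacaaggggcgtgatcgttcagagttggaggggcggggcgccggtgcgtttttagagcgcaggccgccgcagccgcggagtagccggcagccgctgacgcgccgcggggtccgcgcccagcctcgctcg
Nppb, chr4:147985650-147985949, plus strand: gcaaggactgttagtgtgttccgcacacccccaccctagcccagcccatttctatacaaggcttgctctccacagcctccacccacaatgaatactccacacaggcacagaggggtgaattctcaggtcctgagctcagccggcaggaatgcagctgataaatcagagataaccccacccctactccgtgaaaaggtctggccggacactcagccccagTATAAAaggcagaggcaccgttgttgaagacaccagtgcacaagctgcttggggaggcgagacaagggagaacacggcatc
Sst, chr16:23890795-23891094, minus strand: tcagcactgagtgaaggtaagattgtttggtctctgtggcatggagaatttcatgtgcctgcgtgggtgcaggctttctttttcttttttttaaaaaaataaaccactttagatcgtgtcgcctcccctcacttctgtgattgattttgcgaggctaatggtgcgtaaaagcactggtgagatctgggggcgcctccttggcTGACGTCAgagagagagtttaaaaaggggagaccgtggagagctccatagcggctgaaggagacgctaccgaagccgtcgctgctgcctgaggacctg

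The Nppb window held a TATA box beginning at position -31 from the start, and 13.6% of 32851 promoters of this length held one. The Sst window held a cAMP response element at position -48 and the Jak1 window one at position -101, a motif found in 1.79% of the promoters. The Il31ra and Osmr windows held none of the 3 motifs, and the RUNX core, in 16.8% of all promoters, was in none of these 5 windows. A match describes the letters of the window and not a bound site.

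The values that selected the nuclei describe them and are no finding. Htr1f had UMIs in 129 of the 132 nuclei, Il31ra in 120, Cysltr2 in 108, Sst in 44 and Nppb in 29. Levels, as CPM (a gene's UMIs scaled to a common total over a set of nuclei), were 5464 for Htr1f, 1805 for Il31ra, 582 for Cysltr2, 41.3 for Sst and 24.2 for Nppb. The name of the class thus rests on Il31ra, Htr1f and Cysltr2 here, whereas most of the nuclei had no Nppb UMI. By markers detected, 23 nuclei had exactly 2, 63 had 3, 35 had 4 and 11 had all 5. A further 32 nuclei with 2 or more markers stayed out because they had Mrgprd (15 nuclei), Mrgpra3 (11) or Trpm8 (10). Just inside the threshold, the 23 nuclei with 2 markers had 75.2 CPM of Il31ra and 354 CPM of Htr1f, and just outside it, 172 nuclei with 1 marker and no excluded gene had 29.1 and 128 CPM. The 109 nuclei with 3 or more markers had 2317 and 6975 CPM.

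Genes outside the rule separated the itch neuron nuclei along the same line. Osmr stood at 520 CPM in the 109 nuclei with 3 or more markers (95% interval 480 to 562), at 16.7 CPM in the 23 nuclei with 2 (6.13 to 36.4) and at 9.69 CPM in the nuclei with 1 marker. Jak1 stood at 1401, 139 and 116 CPM in the same order. In single nuclei with 3 or more markers, Osmr ran from 0 to 1457.5 CPM with a median of 471 CPM, and in nuclei with 2 markers its median was 0. Jak1 had a median of 1327 CPM in nuclei with 3 or more markers (lowest 0, highest 5137) and of 116 CPM in those with 2. For Osmr and Jak1 the counting intervals of the nuclei with 2 markers overlapped those of the nuclei with 1 marker, and results are given below for all 132 nuclei, with the ratios of the 109 beside some of the genes named. The choice of the 109, set against nuclei with at most 1 marker, was made after the data were seen.

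**Figure D1:**
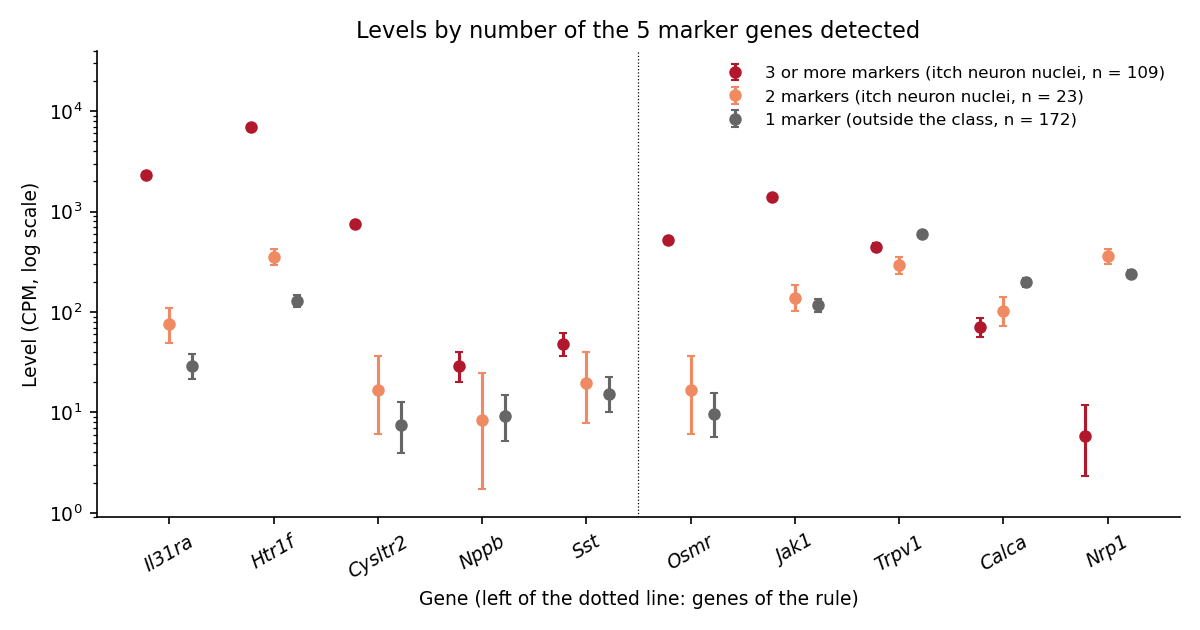
Level of 10 genes (CPM, log scale, with exact Poisson 95% intervals) in itch neuron nuclei with 3 or more markers, in those with 2 markers and in nuclei with 1 marker outside the class. Osmr and Jak1 stand at 520 and 1401 CPM with 3 or more markers and at 16.7 and 139 CPM with 2, whereas Nrp1 stands at 5.77 and 359 CPM.

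Clustering split the nuclei in a similar way. All nuclei passing the neuron genes were clustered on 2000 variable genes from which the 12 genes of the rule were left out. Of the 132 itch neuron nuclei, 106 fell in 1 of 14 clusters (80.3%, exact Clopper-Pearson 95% interval 72.5% to 86.7%). That cluster, number 3, held 117 nuclei: 104 of the 109 nuclei with 3 or more markers, 2 of the 23 with 2 markers, 10 nuclei with 2 or more markers and an excluded gene, and 1 nucleus with 1 marker. The other 26 itch neuron nuclei were spread over 10 clusters. Inside cluster 3 the itch neuron nuclei had 528 CPM of Osmr and 1423 CPM of Jak1, and outside it they had 23.5 and 154 CPM. Only the genes of the rule were kept out of the clustering, so Osmr and Jak1 were open to it. The gap in their levels can follow in part from how the cluster was formed and is no finding. With a finer clustering (resolution 2 instead of 1) the share in the fullest cluster was 66.7%.

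**Figure D2:**
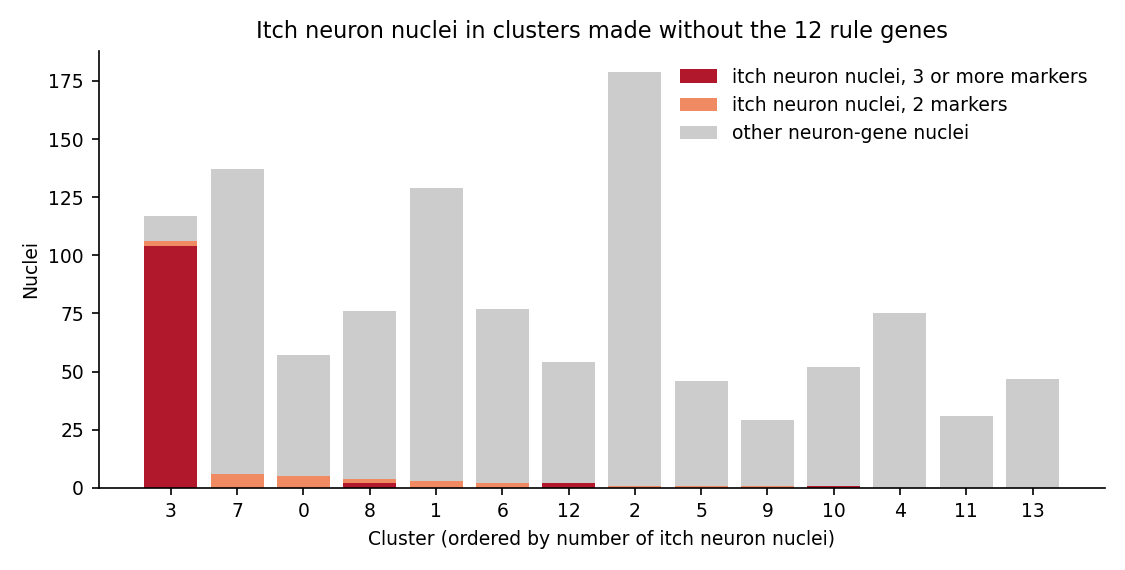
Nuclei per cluster, with clusters ordered by their number of itch neuron nuclei; red bars are itch neuron nuclei with 3 or more markers, orange bars those with 2, and grey bars the other nuclei passing the neuron genes. Cluster 3 holds 106 of the 132, and no other cluster holds more than 6.

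Nppb and Sst were sparse. Splitting the nuclei by these peptides is a description, since both genes, and the markers that nuclei with neither needed in their place, belong to the rule. A UMI of either was present in 61 itch neuron nuclei and of neither in 71, with 12 nuclei holding both, 17 Nppb alone and 32 Sst alone. Nuclei with either peptide had 398 CPM of Osmr, 1088 CPM of Jak1 and 90.1 CPM of Npy2r, against 411, 1137 and 90.4 CPM in nuclei with neither. Their Ptprk levels were 1837 and 1750 CPM, and their Pde4c levels 1154 and 1113 CPM. Slco2a1, the gene of a prostaglandin transporter, stood at 124 CPM with either peptide (95% interval 100 to 152) and at 264 CPM with neither (230 to 302), and Trpv1, the capsaicin channel gene, at 348 CPM (307 to 392) and 468 CPM (422 to 518). By depth, in groups of 44 nuclei with medians of 4718, 9998 and 19680.5 UMIs, Nppb had UMIs in 11, 6 and 12 nuclei, at 69.6, 15.8 and 19.1 CPM, and Sst in 12, 16 and 16 nuclei. Nts, the neurotensin gene, had UMIs in 37 itch neuron nuclei, 10 of them with Nppb and 13 with Sst.

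The itch neuron nuclei were compared with 655 other nuclei passing the neuron genes, taken as the 5 nearest in depth to each within 20% of its total. Their median depths were 9997.5 UMIs in the itch neuron nuclei and 9596 UMIs in the matched nuclei, with 1572982 and 7359233 UMIs in all, and 1 itch neuron nucleus found no match. Of 5226 genes with a mean of at least 30 CPM, 277 were at least 2-fold higher (5.30%) and 403 at least 2-fold lower (7.71%) in the itch neuron nuclei, and the median log2 ratio of all tested genes was 0.09. With the 109 nuclei of 3 or more markers the counts were 450 higher (8.54%) and 553 lower (10.5%) of 5268 genes. The 2-fold bound is a description of size, not a test. The 32 nuclei that an excluded gene kept out were open to matching, and had 182.5 CPM of Osmr and 544 CPM of Jak1. So were all other nuclei with Mrgprd, Mrgpra3 or Trpm8, none of which the rule lets into the class. Low ratios of genes that accompany these excluded genes, such as Lpar3, Grik1 and Pcdh9 below, can follow in part from the rule itself. The size of that part was not tested. Also open to matching were the other nuclei of clusters 1, 8 and 10, of 129, 76 and 52 nuclei with 3, 4 and 1 itch neuron nuclei. The leading genes of these clusters included Sox2 and Cdh19, Flt1 and Ccn2, and Csf1r and Ptprc, in that order. Flt1 is in the endothelial list and Csf1r and Ptprc are in the immune list. The part of such nuclei in the ratios was not tested.

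**Figure D3:**
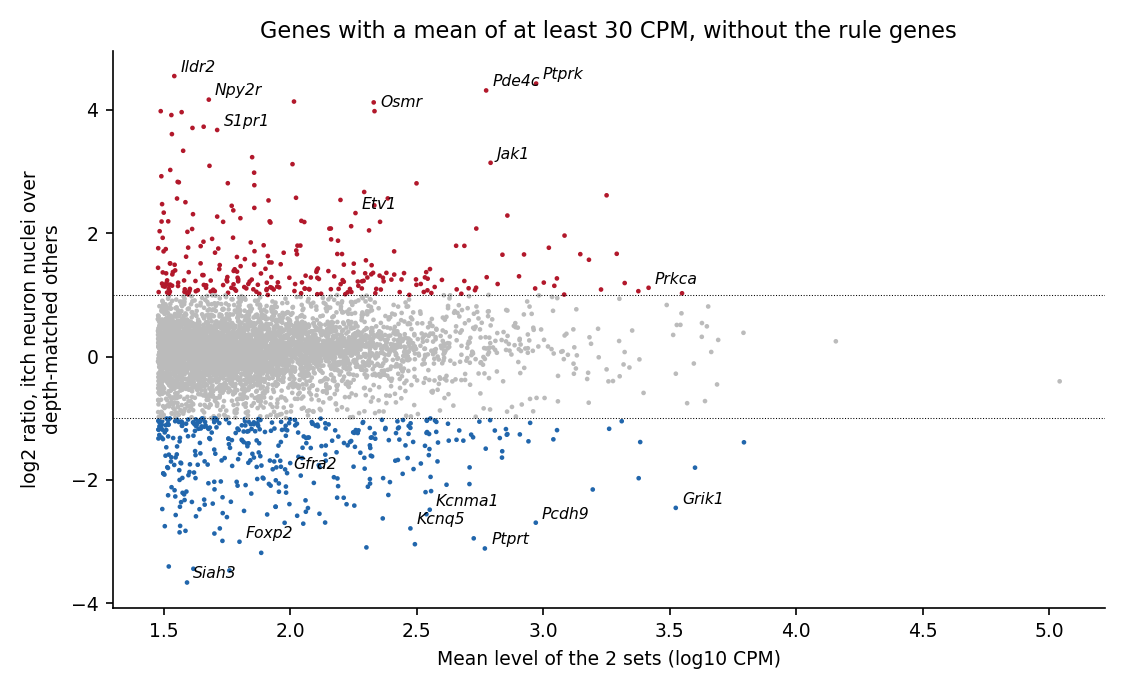
Ratio of levels, itch neuron nuclei over depth-matched other nuclei (log2), against the mean level of both sets (log10 CPM) for 5226 genes. Red points are the 277 genes at least 2-fold higher, blue points the 403 at least 2-fold lower, and dotted lines mark the 2-fold bounds.

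A few genes had ratios above 10. Ptprk, a receptor-type tyrosine phosphatase, stood at 1792 CPM in the itch neuron nuclei and 83.3 CPM in the matched nuclei, a ratio of 21.5 (95% interval 19.7 to 23.5). Pde4c, a cAMP-degrading phosphodiesterase, stood at 1133 and 56.9 CPM, a ratio of 19.9. For the 109 nuclei the ratios were 103.5 for Ptprk and 51.8 for Pde4c. In single nuclei with 3 or more markers Ptprk had a median of 2232 CPM (lowest 0, highest 8952), and in matched nuclei a median of 0 (highest 5351), so that the ranges overlapped. Ildr2, Slco2a1, Npy2r, Osmr, Naip5, Hmga2 and S1pr1 had ratios between 12.8 and 23.4. Hmga2, a chromatin protein, had 63.6 CPM in the itch neuron nuclei, 4.21 CPM in the matched nuclei and 3.36 CPM in satellite glia, and its ratio was 81.7 for the 109 nuclei. The receptor gene Gpr139 (9.40), the calcium-binding protein gene Tesc (10.1), the limb transcription factor gene Tbx4 (8.69), Ankrd36 (8.54) and the syntrophin gene Sntb1 (7.01) followed. Among the genes with the lowest upper bounds of the ratio were the phosphatase gene Ptprt (0.116), Pde11a (0.121), Rgs7 (0.130), L3mbtl4 (0.0904), Slc16a12 (0.0922), Dcbld1 (0.0946) and Siah3 (0.0790). A few nuclei held much of what was left: 3 nuclei held 54.2% of the Ptprt UMIs, 56.2% of the Rgs7 UMIs and 77.8% of the Siah3 UMIs. For the 109 nuclei the ratios were 0.0447 for Ptprt, 0.00993 for Pde11a and 0.0216 for Rgs7. Satellite glia had 986 CPM of Ptprt, 130 CPM of Rgs7 and at most 34.9 CPM of the other lower genes named here.

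Of the 45 genes of cytokine and itch receptors, 11 reached the level minimum, 4 were at least 2-fold higher and 1 lower, beside 5.30% and 7.71% of all genes tested, with a median log2 ratio of 0.49 beside 0.09 over all genes. Osmr, the partner of Il31ra in the interleukin-31 receptor, stood at 405 CPM in the itch neuron nuclei (95% interval 374 to 438) and 25.7 CPM in the matched nuclei, a ratio of 15.8 (13.4 to 18.6). Among the 109 nuclei the ratio was 40.1, from 520 CPM against 12.9 CPM. UMIs of both Il31ra and Osmr were present in 103 of the 132 itch neuron nuclei, in 102 of the 109 and in 20 of the 655 matched nuclei. Il31ra is a gene of the rule, so the gap between these joint counts is in part set by the selection and is no finding. The remaining sets of neurons had 5.08 CPM of Osmr in the Mrgprd gate, 55.3 CPM in the Mrgpra3 gate, 11.5 CPM in the Trpm8 gate and 15.7 CPM in the peptidergic gate, where a gate is a set of nuclei with the neuron genes, that marker and none of the other 2 excluded genes, and at most 1 marker of the class. The peptidergic, large fibre and C-LTMR gates needed 2 markers of their lists, and satellite glia 2 of their 8 and none of the neuron genes. Satellite glia had 28.6 CPM. After thinning each nucleus to 1000 UMIs, 27.3% of the itch neuron nuclei, 1.95% of the other neuron-gene nuclei and 2.88% of satellite glia (median 2169 UMIs before thinning) kept an Osmr UMI, and without thinning the shares were 79.5% of the itch neuron nuclei and 9.31% of the matched nuclei.

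Other chains of this receptor family stood nearer to the matched nuclei. Il6st, which encodes gp130, another partner of Osmr, stood at 132 CPM in the itch neuron nuclei and 106 CPM in the matched nuclei (ratio 1.25, 1.06 to 1.46), and Lifr, the leukemia inhibitory factor receptor gene, at 631 and 451 CPM (ratio 1.40). Npy2r, a neuropeptide Y receptor gene, stood at 90.3 CPM in the itch neuron nuclei and 5.03 CPM in the matched nuclei, a ratio of 18.0 (12.4 to 26.5), and had UMIs in 63 of the 132. S1pr1, a sphingosine-1-phosphate receptor gene, stood at 95.4 and 7.47 CPM, a ratio of 12.8. For the 109 nuclei the ratios were 38.6 for Npy2r and 25.2 for S1pr1. Of the nuclei with 3 or more markers 43 had UMIs of both Npy2r and S1pr1, and 24 had neither. Mrgprx1, a receptor gene of the Mas-related family, stood at 86.5 CPM in the itch neuron nuclei, 33.0 CPM in the matched nuclei and 173 CPM in the Mrgpra3 gate (ratio 2.62). The one receptor gene that was lower was Lpar3, a lysophosphatidic acid receptor gene known from Mrgprd neurons. It stood at 12.1 CPM in the itch neuron nuclei, 88.2 CPM in the matched nuclei and 299 CPM in the Mrgprd gate. Nuclei with Mrgprd were kept out of the class by the rule but not out of the matched nuclei. P2rx3, an ATP-gated channel of nociceptors, differed little, at 110 and 122 CPM.

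Some receptors of known itch mediators lay under the level minimum and are named here after their values were seen. The histamine receptor genes Hrh1 and Hrh2 stood at 28.6 and 45.1 CPM in the itch neuron nuclei, against 4.35 and 6.79 CPM in the matched nuclei. The ratios were 6.58 (4.09 to 10.7) and 6.64 (4.56 to 9.74). The serotonin receptor gene Htr2a stood at 40.1 CPM in the itch neuron nuclei and 15.2 CPM in the matched nuclei, a ratio of 2.63 (1.90 to 3.62). Il4ra, through which interleukin-4 and interleukin-13 act, had 6 UMIs in all 132 nuclei, and its ratio of 0.573 had an interval from 0.201 to 1.34. At this depth no difference in Il4ra was detectable.

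Of 22 signalling genes, 19 were tested, 5 were at least 2-fold higher and 2 lower, beside 5.30% and 7.71% of all genes tested, with a median log2 ratio of 0.12. Jak1 led with 1113 CPM in the itch neuron nuclei and 126 CPM in the matched nuclei, a ratio of 8.83 (8.15 to 9.57), and the ratio was 15.6 for the 109 nuclei. Its UMIs stood beside those of Osmr in all 105 itch neuron nuclei with an Osmr UMI. Thinned to 1000 UMIs, 62.9% of itch neuron nuclei, 9.55% of other neuron-gene nuclei and 9.69% of satellite glia kept a Jak1 UMI, while 93.2% of the itch neuron nuclei and 46.3% of the matched nuclei had one without thinning. The other Janus kinase genes did not follow: Jak2 stood at 32.4 and 33.0 CPM (ratio 0.982, 0.711 to 1.33) and Tyk2 at 45.1 and 38.9 CPM (ratio 1.16, 0.883 to 1.51). Stat3, a transcription factor that Janus kinases activate, stood at 226 CPM in the itch neuron nuclei and 185 CPM in the matched nuclei (ratio 1.22). Socs2, which dampens cytokine signals, was higher at 110 CPM against 43.2 CPM (ratio 2.54).

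Genes that act behind G-protein-coupled receptors differed by isoform. Gna14, a Gq-class subunit gene, stood at 848 CPM in the itch neuron nuclei and 348 CPM in the matched nuclei (ratio 2.44), near the 759 CPM of the Mrgprd gate. Its relative Gnaq stood at 835 and 768 CPM (ratio 1.09). Prkca, a protein kinase C gene, stood at 3572 and 1648 CPM (ratio 2.17), with 3636 CPM in the Mrgprd gate. Adcy2, an adenylyl cyclase gene, stood at 758 and 218 CPM (ratio 3.47), while the Mrgprd gate had 22.0 CPM. The phosphodiesterase genes went apart: against the ratio of 19.9 for Pde4c, Pde4b had 125 CPM in the itch neuron nuclei and 262 CPM in the matched nuclei (ratio 0.475), and Pde4d had 572 and 1204 CPM (ratio 0.475). Among the 109 nuclei Pde4b stood at 23.9 CPM and Pde4d at 91.4 CPM, with ratios of 0.0803 and 0.0771, which held 29 of the 196 Pde4b UMIs and 111 of the 900 Pde4d UMIs of the class.

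**Figure D4:**
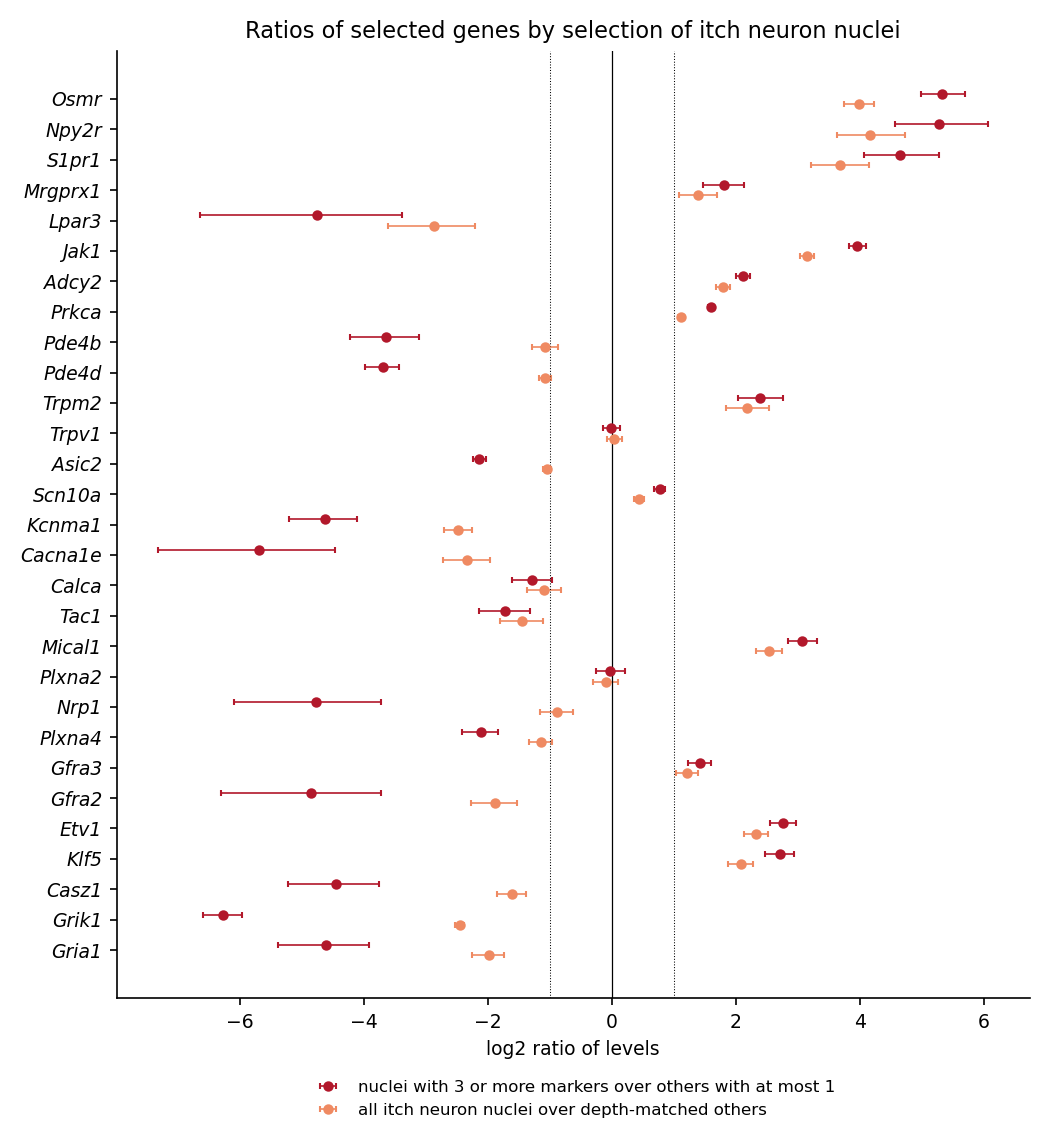
Ratio of levels on a log2 scale with 95% counting intervals for 29 genes; red, the 109 nuclei with 3 or more markers over matched nuclei with at most 1 marker; orange, all 132 itch neuron nuclei over depth-matched nuclei. The red points of genes that were lower, such as Grik1 and Kcnma1, lie farther from 0 than the orange ones, and Trpv1 and Plxna2 lie near 0 in both.

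Of 21 genes for Trp, Piezo and related channels, 14 were tested, 1 was at least 2-fold higher and 2 were lower, near the 5.30% and 7.71% of all genes tested (median log2 ratio 0.03 beside 0.09). With the 109 nuclei 2 were higher and 2 lower of 14, beside 8.54% and 10.5% of all genes tested. Trpm2, a channel opened by oxidative stress signals, stood at 89.0 CPM in the itch neuron nuclei and 19.6 CPM in the matched nuclei (ratio 4.55, 3.58 to 5.78). Trpv1, the heat and capsaicin channel that itch neurons are known to use, had near-equal levels, 409 CPM in the itch neuron nuclei and 398 CPM in the matched nuclei (ratio 1.03, 0.943 to 1.12). Its spread over nuclei was unlike: UMIs were present in 98 of the 109 nuclei with 3 or more markers, which had a median of 399 CPM per nucleus, while matched nuclei had a median of 0 and a highest value of 15455 CPM. Piezo2, the channel of light touch, stood at 1369 CPM in the itch neuron nuclei, 1642 CPM in the matched nuclei and 4917 CPM in the C-LTMR gate, the nuclei with markers of C-fibre low-threshold mechanoreceptors. The acid-sensing channel gene Asic2 was lower at 1333 and 2755 CPM (ratio 0.484, and 0.228 for the 109 nuclei), and Trpc4 at 8.26 and 55.6 CPM (ratio 0.149). Trpa1, named after its value was seen, had 16 UMIs in the itch neuron nuclei and a ratio of 1.12 (0.604 to 1.95).

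Of 47 voltage-gated and related channel genes, 35 were tested, 2 were at least 2-fold higher and 13 lower, beside 5.30% and 7.71% of all genes tested, with a median log2 ratio of -0.35 beside 0.09 over all genes. With the 109 nuclei 5 were higher and 15 lower of 32, beside 8.54% and 10.5% of all genes tested. The sodium channel genes of nociceptors stood at or above the level of matched nuclei: Scn10a (Nav1.8) had 1130 CPM in the itch neuron nuclei and 833 CPM in the matched nuclei (ratio 1.36), Scn9a (Nav1.7) 889 and 811 CPM, and Scn11a (Nav1.9) 385 and 358 CPM. Every one of the 109 nuclei with 3 or more markers had a Scn10a UMI. Potassium channel genes made up most of the lower ones. Kcnma1, the large-conductance calcium-activated channel, stood at 108 CPM in the itch neuron nuclei and 604 CPM in the matched nuclei (ratio 0.179, 0.153 to 0.209), and its accessory subunit gene Kcnmb2 at 42.0 and 358 CPM (ratio 0.117). Kcnq5, an M-current channel gene, stood at 75.7 and 522 CPM (ratio 0.145), Kcnk2 at 27.3 and 148 CPM and Kcnk10 at 13.4 and 68.3 CPM. For the 109 nuclei the ratios were 0.0403 for Kcnma1 and 0.0244 for Kcnmb2. Among them Kcnq5 had 7.41 CPM and a ratio of 0.0130, since 3 nuclei held 86.5% of the Kcnq5 UMIs of the whole class. The calcium channel genes Cacna1e (0.199) and Cacna1d (0.368) and the subunit gene Cacnb4 (0.218) were also lower. For the 109 nuclei their ratios were 0.0194, 0.146 and 0.0478, and 3 nuclei held 86.7% of the Cacna1e UMIs of the whole class. Cacna2d2, an auxiliary calcium channel subunit gene (497 and 192 CPM, ratio 2.58), and the inward rectifier gene Kcnj3 (235 and 114 CPM, ratio 2.07) were the genes at least 2-fold higher.

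Among 23 neuropeptide genes, 5 were tested and 4 were lower, 0 higher, beside 7.71% and 5.30% of all genes tested (median log2 ratio -1.44). Tac1, the substance P gene, stood at 48.3 CPM in the itch neuron nuclei and 131 CPM in the matched nuclei (ratio 0.368, 0.287 to 0.465), against 280 CPM in the peptidergic gate and 107 CPM in satellite glia. Calca, the calcitonin gene-related peptide gene, stood at 78.2 and 166 CPM (ratio 0.470), with 351 CPM in the peptidergic gate and 225 CPM in satellite glia, and both genes are among the markers that chose that gate. The levels in glia were therefore above those of the itch neuron nuclei for both genes. Satellite glia (median 2169 UMIs) stand here for free RNA, which enters a droplet from outside the nucleus. Apoe, a satellite glia marker, had UMIs in all 132 itch neuron nuclei and 99.85% of the matched nuclei. The part of free RNA in the Tac1 and Calca levels of either set was not tested. Calcb (ratio 0.322) and Adcyap1, the PACAP gene (ratio 0.279), were also lower, whereas Bdnf stood at 39.4 and 27.99 CPM. Nts, which lay under the minimum and is named after its value was seen, had 56 UMIs in the itch neuron nuclei and 25 in the matched nuclei, 35.6 and 3.40 CPM, a ratio of 10.5 (6.43 to 17.5). Of 26 peptide and opioid receptor genes only 2 reached the minimum: Oprm1, the mu opioid receptor, at 329 CPM in the itch neuron nuclei and 184 CPM in the matched nuclei (ratio 1.79, and 2.13 for the 109 nuclei), and Npr2 at 76.3 and 76.0 CPM.

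The ganglion library was made to look for receptor components of SEMA3B, a class 3 semaphorin. Such semaphorins act through neuropilins (Nrp1, Nrp2), which bind the ligand, and A-type plexins, which pass the signal on. Of 28 semaphorin receptor and partner genes 19 were tested, 1 was at least 2-fold higher and 2 were lower. These were near the 5.30% and 7.71% of all genes tested (median log2 ratio -0.09 beside 0.09). With the 109 nuclei 1 was higher and 4 were lower of 20, beside 8.54% and 10.5% of all genes tested. Nrp1 (ratio 0.0368) and Plxna4 (0.231) were among those 4. Neuropilins, named here after their values were seen, were sparse. Nrp2 had 38 UMIs in the itch neuron nuclei, 24.2 CPM against 33.3 CPM in the matched nuclei (ratio 0.726, 0.501 to 1.02), and satellite glia had 149 CPM. Nrp1 stood at 86.5 CPM in the itch neuron nuclei and 160 CPM in the matched nuclei (ratio 0.541, 0.450 to 0.647). Of its 136 UMIs in the class, 129 lay in the 23 nuclei with 2 markers. Among the 109 nuclei with 3 or more markers only 3 had a Nrp1 UMI, with 7 UMIs or 5.77 CPM (95% interval 2.32 to 11.9), against 157 CPM in the matched nuclei with at most 1 marker, 708 CPM in the C-LTMR gate and 200 CPM in satellite glia.

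Of the A-type plexins, Plxna2 and Plxna4 reached the level minimum. Plxna2 stood at 153 CPM in the itch neuron nuclei and 163 CPM in the matched nuclei (ratio 0.937, 0.812 to 1.08), and at 154 CPM in the 109 nuclei, of which 60 had a UMI. Plxna4 was lower, at 167 CPM in the itch neuron nuclei and 370 CPM in the matched nuclei (ratio 0.451, 0.396 to 0.512), and at 85.7 CPM in the 109. Plxna1 and Plxna3 had 11 and 17 UMIs in the class, and 0 and 8 of them lay in the 109 nuclei. Of the other plexins, Plxnc1, a receptor for the membrane-anchored Sema7a, stood at 179 and 141 CPM, and Plxnd1 at 54.7 and 42.7 CPM. Mical1, an actin-oxidising enzyme that acts behind plexins, was the gene of this list that was higher, with 270 CPM in the itch neuron nuclei and 46.3 CPM in the matched nuclei (ratio 5.82, 5.03 to 6.73), and no other gate exceeded 102 CPM. In single nuclei with 3 or more markers Mical1 had a median of 296 CPM (highest 1038). Its relative Mical3 stood at 214 and 169 CPM. Chl1, an adhesion molecule that partners neuropilins, was lower at 50.9 and 133 CPM (ratio 0.383).

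**Figure D5:**
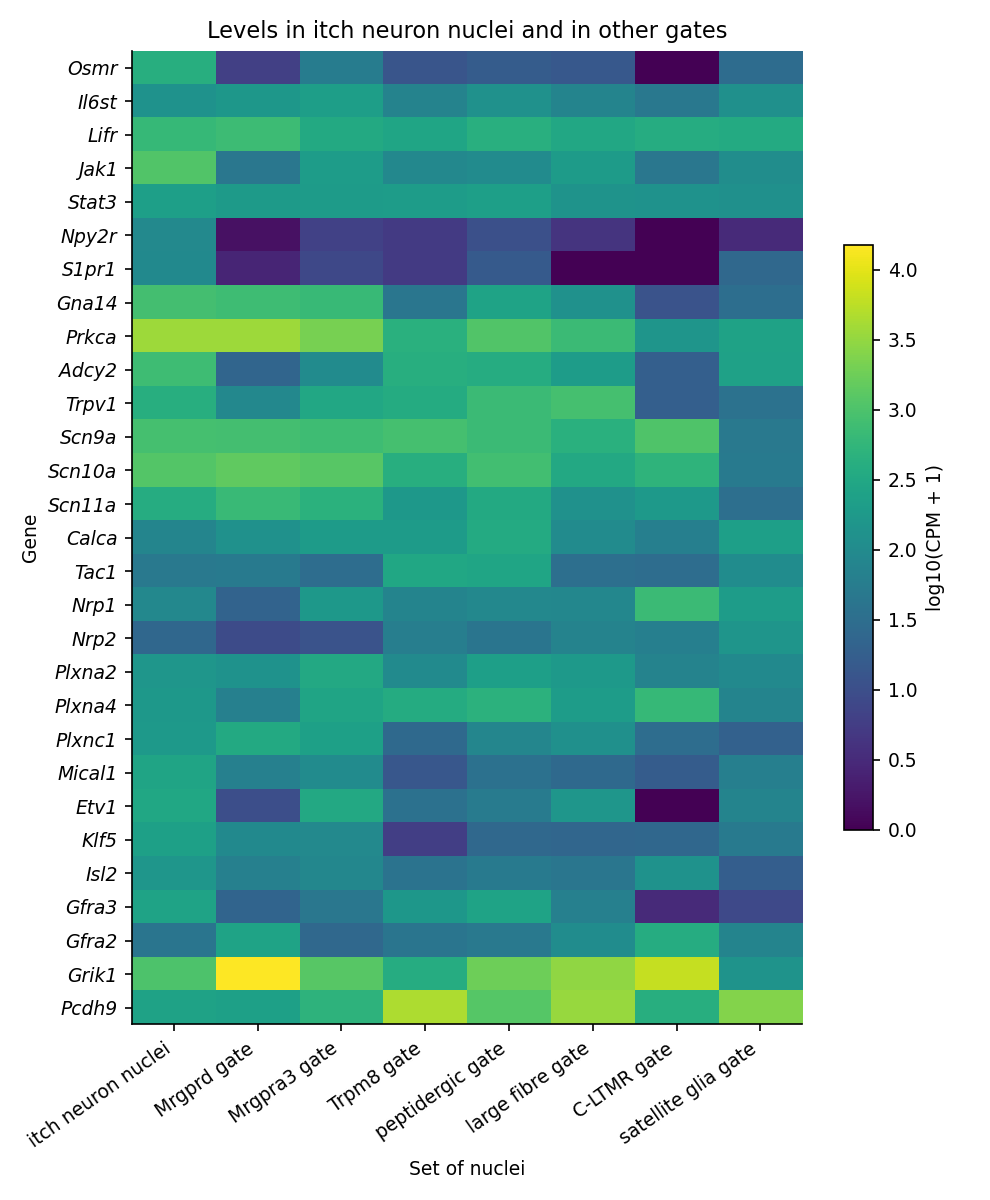
Levels (log10 of CPM + 1, colour) of 29 genes in the 132 itch neuron nuclei and in the other gates of the same library. Osmr, Jak1, Npy2r and S1pr1 are highest in the first column, Nrp1 is highest in the C-LTMR gate, and Grik1 in the Mrgprd gate.

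Of 39 genes for semaphorins and other guidance cues, 15 were tested, 1 was higher and 5 were lower, beside 5.30% and 7.71% of all genes tested (median log2 ratio -0.17). Sema6d stood at 437 CPM in the itch neuron nuclei and 987 CPM in the matched nuclei (ratio 0.443), Robo2 at 426 and 1018 CPM (ratio 0.418), and Epha5 at 38.1 and 223 CPM (ratio 0.171). Dcc, a netrin receptor gene, was counted as higher with 49.6 and 17.4 CPM (ratio 2.85), but 3 nuclei held 92.3% of its 78 UMIs, and among the 109 nuclei its ratio was 0.213. Of 39 tested adhesion molecule genes 14 were lower and 0 higher, beside 7.71% and 5.30% of all genes tested (median log2 ratio -0.55). With the 109 nuclei 21 were lower and 3 higher of 38, beside 10.5% and 8.54% of all genes tested. Pcdh9, a protocadherin gene, stood at 250.5 CPM in the itch neuron nuclei, 1619 CPM in the matched nuclei and 4581 CPM in the Trpm8 gate (ratio 0.155, 0.140 to 0.171). Cntn5 (ratio 0.188), Ntm (0.185), Cdh13 (0.213), Cntn4 (0.217) and Cdh11 (0.283) were lower too, while Cntnap2 stood at 3968 CPM in the itch neuron nuclei, against 2780 CPM in the matched nuclei. Satellite glia had 2541 CPM of Pcdh9 and 1064 CPM of Cdh11, but at most 42.8 CPM of Cntn5, Ntm, Cdh13 and Cntn4.

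Of 15 tested trophic factor receptor genes, 1 was higher and 7 were lower, beside 5.30% and 7.71% of all genes tested (median log2 ratio -0.98). The glial cell line-derived neurotrophic factor co-receptor genes split by member. Gfra3, the artemin co-receptor, stood at 259 CPM in the itch neuron nuclei and 111 CPM in the matched nuclei (ratio 2.33, 2.06 to 2.62), near the 264 CPM of the peptidergic gate. Gfra2, the neurturin co-receptor, stood at 41.3 and 153 CPM (ratio 0.270), and at 4.94 CPM among the 109 nuclei. Gfra1 stood at 32.4 and 81.5 CPM (ratio 0.398), but its ratio was 1.17 when every nucleus was thinned to 1000 UMIs. Ret, their shared signalling subunit, stood at 103 and 121 CPM (ratio 0.851, 0.715 to 1.01), a gene named after its value was seen. The receptor kinase genes Alk (0.180), Kit (0.389) and the sortilin-type receptor gene Sorcs3 (0.216) were lower.

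Of 31 tested transcription factor genes, 3 were higher and 8 lower, beside 5.30% and 7.71% of all genes tested (median log2 ratio -0.36). Etv1, an ETS factor gene, stood at 302 CPM in the itch neuron nuclei, 60.2 CPM in the matched nuclei and 334 CPM in the Mrgpra3 gate (ratio 5.02, 4.40 to 5.72). Klf5, a zinc finger factor gene, stood at 231 and 54.8 CPM (ratio 4.21) and Isl2, a LIM homeobox gene, at 155 and 67.4 CPM (ratio 2.30). Runx1, which sets nociceptor identity, stood at 343 CPM in the itch neuron nuclei and 440 CPM in the matched nuclei (ratio 0.780), and is named after its value was seen. Foxp2 (13.99 and 112 CPM, ratio 0.125), Bcl11a (14.6 and 77.2 CPM, ratio 0.189), Nfib (0.219), Zeb2 (0.284) and Casz1 (103 and 314 CPM, ratio 0.329) were lower. Satellite glia had 443 CPM of Foxp2, 649 CPM of Nfib and 1485 CPM of Zeb2, but 8.31 CPM of Bcl11a and 13.6 CPM of Casz1. The part of glial RNA in these ratios was not tested. For the 109 nuclei the ratio of Foxp2 was 0.0424. Among them Casz1 had 14 CPM and Zfp521, a factor of the C-LTMR list, 6.59 CPM, with ratios of 0.0459 and 0.0137.

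Of 19 tested genes of glutamate and GABA signalling 7 were lower and 0 higher, beside 7.71% and 5.30% of all genes tested (median log2 ratio -0.88). With the 109 nuclei 12 were lower and 0 higher of 19, beside 10.5% and 8.54% of all genes tested. Grik1, a kainate receptor subunit gene, stood at 1033 CPM in the itch neuron nuclei, 5653 CPM in the matched nuclei and 14842 CPM in the Mrgprd gate (ratio 0.183, 0.174 to 0.192). In the 109 nuclei Grik1 had 69.2 CPM, with a median of 0 per nucleus, and 84 of its 1625 UMIs in the class. Gria1, an AMPA receptor subunit gene, stood at 83.3 and 330 CPM (ratio 0.253, and 0.0412 for the 109 nuclei), whereas Gria4 stood at 694 and 395 CPM (ratio 1.76). Slc17a6, the vesicular glutamate transporter of sensory neurons, was lower at 33.1 and 84.5 CPM (ratio 0.391, 0.289 to 0.519). For transmitter release, 3 of 22 tested genes were higher and 4 lower, beside 5.30% and 7.71% of all genes tested (median log2 ratio 0.03). The synapsin gene Syn3 (559 and 236 CPM, ratio 2.37), the priming factor gene Unc13c (1269 and 590 CPM, ratio 2.15) and the granin gene Scg2 (82.6 and 39.4 CPM, ratio 2.10) were higher. Syt7, Rims1, Syt4 and Syt2 had ratios of 0.259, 0.355, 0.409 and 0.441. Of 15 tested cytoskeletal genes 2 were lower and 0 higher, beside 7.71% and 5.30% of all genes tested (median log2 ratio 0.08 beside 0.09). The lower ones were Map2 (0.379, and 0.0537 for the 109 nuclei) and the growth-associated gene Gap43 (0.426). Prph, the intermediate filament gene of unmyelinated neurons, stood at 761 and 711 CPM.

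Markers of other cells were at similar or lower summed levels in the itch neuron nuclei, with endothelial, mural and Schwann markers lower beyond counting error. The 8 satellite glia markers summed to 1163 CPM in the itch neuron nuclei, 1162 CPM in the matched nuclei and 7932 CPM in satellite glia, and 117 of the 132 nuclei had UMIs of at least 2 of them. Among these 8, Kcnj3 is high in the neurons of this library and low in its glia (235 CPM in the itch neuron nuclei against 8.14 CPM in satellite glia). Schwann markers summed to 476 and 607 CPM, from 749 and 4465 UMIs. Scn7a held 485 and 2949 of these UMIs, and stood at 308 and 401 CPM against 143 CPM in satellite glia. The Schwann sums thus rest mostly on a gene that was higher in these neurons than in satellite glia. Mesenchymal markers summed to 151 and 177 CPM, endothelial and mural markers to 31.8 and 75.3 CPM, and immune markers to 30.5 and 31.9 CPM. In each of the last 2 lists 1 of 6 genes was at 0 in the itch neuron nuclei. Replication genes summed to 19.1 and 18.9 CPM. Immediate early and heat shock genes summed to 362 CPM in the itch neuron nuclei and 285 CPM in the matched nuclei, and among them Junb stood at 80.1 and 23.8 CPM (ratio 3.37). Of markers of other neurons, peptidergic ones summed to 167 and 397 CPM, large fibre ones to 162 and 325 CPM, C-LTMR ones to 496 and 818 CPM and those that accompany Mrgprd to 574 and 829 CPM. Tafa4, a C-LTMR marker, stood at 39.5 CPM in the 109 nuclei and at 246 CPM in all 132. The part of these markers in the ratios above was not tested. Of the 132 barcodes, 3 also occurred in a nerve library.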

How the data were processed

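The measurements are UMI counts per gene and barcode of 1 ganglion library of pooled animals. The authors deposited them as raw counts, made with Cell Ranger 7.1.0 per the file headers. The submitters' processing notes name Seurat and mm9, while intron counting and annotation are not stated, so counts on genes that overlap or have near copies are uncertain. Gene coordinates are therefore given only for the RefSeq promoter windows.

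Nuclei passing the rule were compared with other nuclei passing the neuron genes. Up to 5 matched nuclei within 20% of the total were drawn per nucleus, without replacement. UMIs were summed per set and scaled to CPM. Intervals are exact (Poisson for levels, conditional for ratios, Clopper-Pearson for shares), at 95%, for counting error only. Where 1 of the 2 sets had a count of 0, its level was taken at 3 counts for the ratio, which is then a bound. With 1 library and no replicates there is no test. Genes were counted when the mean of both sets was at least 30 CPM, and called at a ratio of 2 or 0.5. Clustering used 2000 variable genes, 30 components, 15 neighbours and Leiden resolution 1 (scanpy 1.11.5, igraph 0.11.9). Scrublet called 2 nuclei by its own threshold (0.0422%), so no doublets were removed in the main comparison, and removal of the highest-scoring 8% was an alternative. Levels of different genes are not compared, since no length scaling was made. On simulated counts the comparison was checked to recover known changes.

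The members and the 28 gene lists were chosen with earlier results of these data known. Genes are named by a rule: the 12 genes that selected the nuclei, up to 6 genes per list beyond 2-fold in each direction with an interval beyond 1, and up to 3 further genes of a list by level. Added to these are, over all genes tested, the 15 with the highest lower bound of the ratio and the 10 with the lowest upper bound. Symbols of the form Gm plus digits, with Rik or starting with mt- were left out of these. Named after their values were seen were Nrp1, Nrp2, Nts, P2rx3, Hrh1, Hrh2, Htr2a, Il4ra, Ptger3, Htr1d, Crlf2, Il13ra1, Jak2, Tyk2, Stat3, Trpv1, Trpa1, Scn9a, Scn10a, Scn11a, Cacna1d, Cacnb4, Plxna1, Plxna2, Plxna3, Plxnd1, Ret, Runx1, Prph, Piezo1, Trpm6 and Chrm2. Analysis used Python 3.11.15, numpy 2.4.6 and scipy 1.17.1. Some genes are not reported here.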

Additional observations from a re-analysis of the deposited data

How the results depend on the processing

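The numbers of genes at least 2-fold higher and lower, 277 and 403 of 5226 (5.30% and 7.71%), depended most on the level minimum and on depth. With every nucleus thinned to 1000 UMIs they were 680 and 634 of 5550 (12.3% and 11.4%). No minimum gave 9246 and 2467 of 28293 (32.7% and 8.72%). A minimum of 100 CPM gave 128 and 161 of 1666 (7.68% and 9.66%), so the counts fell while the shares rose. With at least 3 markers 436 of 5269 genes were higher (8.27%), and 450 of 5268 (8.54%) when the other nuclei were also limited to at most 1 marker. In the clustering, resolution 2 gave a share of 66.7%. Ratios that turned direction were Gfra1 to 1.17 after thinning, and Dcc to 0.178 with 3 or more markers and to 0.213 with the others limited as well. The causes were not tested. Unmatched nuclei, 1 match per nucleus, a minimum of 2000 UMIs, a mitochondrial limit of 1%, removal of the highest 8% of doublet scores, leaving out the 32 nuclei with an excluded gene and limiting the others to the 6 neuron gates kept both counts within 1.5 times. Median-of-ratios scaling gave 235 and 445 genes and a median log2 ratio of all genes near 0. Of 96 named genes beyond 2-fold, between 86 and 96 stayed so in each alternative. Leaving out nuclei with 2 or more glial genes kept only 5 of the 132 nuclei, and no ratios were computed from them. No paired analysis was possible because the comparison lies within 1 library. Nppb and Sst rest on 38 and 65 UMIs.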

Other observations

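Nuclei outside the class that shared its cluster are described here without a comparison, since the cluster was formed on genes such as Ptprk and Pde4c. The 106 itch neuron nuclei of cluster 3 had 528 CPM of Osmr, 1423 CPM of Jak1, 2325 CPM of Ptprk and 1485 CPM of Pde4c, against 570, 1607, 2651 and 1607 CPM in the 11 nuclei of that cluster that the rule left out. Nppb and Sst stood at 26.9 and 47.1 CPM in the itch neuron nuclei, against 81.4 CPM (95% interval 42.0 to 142) and 108 CPM (62.0 to 176) in the 11. The 11 nuclei held 2 UMIs of Mrgprd, 4 of Mrgpra3 and 6 of Trpm8 in all.

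Further genes under the level minimum gave a few large ratios in small counts, named after their values were seen. Piezo1, a mechanosensitive channel gene, had 41 UMIs in the itch neuron nuclei and 15 in the matched nuclei, 26.1 and 2.04 CPM, a ratio of 12.8 (6.93 to 24.9). Trpm6 had 47 and 25 UMIs, a ratio of 8.80 (5.30 to 14.9). Satellite glia held 20.3 CPM of Piezo1 and 16.6 CPM of Trpm6, and the part of glial RNA in these values was not tested. The muscarinic receptor gene Chrm2 had 6 UMIs in the itch neuron nuclei, 3.81 CPM against 46.3 CPM in the matched nuclei and 167 CPM in the peptidergic gate.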
